A study of Homo sapiens with 7 samples.

Results

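The type II cadherins CDH6, CDH9, CDH10, CDH12 and CDH18 on chromosome 5, CDH8 and CDH11 on chromosome 16, and CDH7, CDH19 and CDH20 on chromosome 18 were examined for their place in broad domains of repressive histone methylation. These 10 genes were chosen by name and position, with earlier results of these data known, out of 20033 protein-coding genes on the assembled chromosomes of the human genome (hg38, GENCODE release 44), the source of all gene positions below. Of the 10 genes, 8 had their start site and their whole body inside an H3K9me3 domain and none of their body in an H3K27me3 domain. In the Clone 3 H3K9me3 set, 3.35% of all protein-coding genes had their start site inside and 2.83% their whole body, and the share of start sites was 52.9% among genes with no other coding start within 1 Mb. The remaining members, CDH6 and CDH20, had no H3K9me3 on the body. At least 50% of each of these bodies lay in H3K27me3 domains in every H3K27me3 set. That level was reached by 6.76% of all protein-coding genes in Clone 3, 7.77% in Clone 6 and 5.48% in the shared set. In Clone 3 it was reached by 402 of the 3667 genes of at least 100 kb, so 2 of 10 is near the background. With domains of at least 100 kb alone, CDH20 was at 31.7% in Clone 6 and in the shared set.

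Type II cadherins are single-pass membrane proteins that join neighbouring cells through their extracellular cadherin repeats and bind catenins with their cytoplasmic tail. They are known best from the nervous system, where combinations of them sort neurons and mark subtypes, and from mesenchyme, where CDH11, also called OB-cadherin after osteoblasts, is prominent. CDH6 is known from kidney development, CDH8 and CDH9 from synapse specificity, and CDH7, CDH19 and CDH20 from neural crest, Schwann cells and neural tissue. Many genes of the family are long, sit in clusters that arose by duplication, and are separated by large intervals without other coding genes. H3K9me3 is the histone mark of constitutive heterochromatin, and H3K27me3 is laid down by Polycomb repressive complex 2. Both can cover broad domains, and both are associated with silent genes.

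The domains came from HCT116, a human colorectal carcinoma line, engineered to carry a doxycycline-inducible shRNA against UHRF1, a ubiquitin ligase that helps copy DNA methylation after replication. All libraries were from cells without doxycycline at day 14, so the hairpin was carried but not induced. Clone 3 contributed 2 H3K9me3 and 2 H3K27me3 immunoprecipitations and 1 input, and Clone 6 contributed 2 H3K27me3 immunoprecipitations. Each clone is a separate clonal population. H3K9me3 in Clone 6 was not analysed here on its own and enters only through the set shared by both clones. The authors deposited 5 domain sets: Clone 3 H3K9me3 with 567 domains over 377.0 Mb, shared H3K9me3 with 478 over 353.8 Mb, Clone 3 H3K27me3 with 2600 over 385.6 Mb, Clone 6 H3K27me3 with 1959 over 370.3 Mb, and shared H3K27me3 with 1844 over 293.8 Mb. Each set holds 1 list of domains found in both replicates or in both clones, so no value below has a replicate error and no difference was tested. The shared sets are built from the clone sets and are not independent of them.

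The sequences just before the start sites of 8 members were available from RefSeq (GRCh38.p14), as the 250 bases upstream of the Ensembl canonical start. For CDH6 and CDH11 no window was used here. The letters CG, which read the same on both strands, were counted in each window and in 21613 windows of the same length from 15345 genes. The latter were not limited to canonical starts. Among all windows the median was 17 CpGs and 3.17% held none. The members ranged from 4 to 33 CpGs. The windows of CDH7 and CDH8 lie wholly in annotated exons, because other transcripts of these genes start further upstream, and without CDH7 the highest number was 19. The 4 windows below are shown because they span both marks and both chromosomes with mixed marks: CDH9 and CDH18 start in the same H3K9me3 domain of chromosome 5, CDH19 starts in the H3K9me3 domain of chromosome 18, and CDH20 is the only member with a start site in H3K27me3. CpGs are in capitals, and bases in annotated exons of the gene were left off.
CDH9: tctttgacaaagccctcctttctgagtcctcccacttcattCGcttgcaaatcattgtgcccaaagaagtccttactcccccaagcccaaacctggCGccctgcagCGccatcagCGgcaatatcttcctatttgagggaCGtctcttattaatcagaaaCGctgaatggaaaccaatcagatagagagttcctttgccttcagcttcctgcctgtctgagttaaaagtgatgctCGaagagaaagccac
CDH18: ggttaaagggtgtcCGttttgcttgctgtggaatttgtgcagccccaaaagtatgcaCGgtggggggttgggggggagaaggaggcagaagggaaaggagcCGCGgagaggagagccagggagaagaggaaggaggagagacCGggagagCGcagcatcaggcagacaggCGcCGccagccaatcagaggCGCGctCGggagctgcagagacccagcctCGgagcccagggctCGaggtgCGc
CDH19: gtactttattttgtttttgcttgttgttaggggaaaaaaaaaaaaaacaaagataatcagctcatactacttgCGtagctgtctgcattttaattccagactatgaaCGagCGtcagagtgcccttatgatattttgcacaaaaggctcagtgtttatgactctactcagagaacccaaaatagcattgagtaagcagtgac
CDH20: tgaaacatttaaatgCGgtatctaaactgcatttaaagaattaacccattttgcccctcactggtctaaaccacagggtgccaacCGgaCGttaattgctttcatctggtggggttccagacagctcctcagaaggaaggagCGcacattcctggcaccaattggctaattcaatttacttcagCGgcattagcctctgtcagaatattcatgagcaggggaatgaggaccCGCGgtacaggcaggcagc

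The CDH9 window is chr5:27038587-27038836 on the minus strand and holds 7 CpGs in 250 bases. The CDH18 window is chr5:19988208-19988450 on the minus strand, and its 243 bases hold 14. Both lie in the same H3K9me3 domain, and both are below the median of all windows in CpGs. The CDH19 window, chr18:66604139-66604340 on the minus strand, holds 3 CpGs in 202 bases. The CDH20 window, chr18:61333180-61333429 on the plus strand, holds 7 CpGs in 250 bases, the same number as CDH9.

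Over the full 250 bases the 7 H3K9me3 members with a window differed widely in CpG content. CDH19 had 4 CpGs, and 22.0% of all windows had as many or fewer. CDH9 had 7 (30.0% of windows), CDH10 and CDH12 had 10 each (36.1%), CDH18 had 15 (47.3%) and CDH8 had 19 (58.1%). CDH7, which shares its H3K9me3 domain with CDH19, had 33 CpGs, and 91.4% of windows had as many or fewer. For CDH7 and CDH8 all 250 bases of the window are annotated as exon. CDH20, in H3K27me3, had 7 and fell inside the range of the H3K9me3 members. The GC content of these windows ran from 38.0% in CDH19 to 78.4% in CDH7, with a median of 62% over all windows.

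The name of the group was checked against the annotation. 9 of the 10 members had no other coding start site within 500 kb of their own, against 335 of the 20033 protein-coding genes. CDH6 was the exception, with 3 other coding starts within 500 kb and 4 within 1 Mb, so that it lies at the edge of a gene desert. CDH9, CDH10, CDH18, CDH8 and CDH11 had no other coding start within 1 Mb, a state shared by 85 protein-coding genes (0.424%). CDH12 and CDH7 had 1 such start each, CDH19 had 2 and CDH20 had 5. The median over all protein-coding genes was 22.

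The nearest coding neighbour of a member was often another cadherin. The start nearest to CDH9 was that of CDH10, 2476 kb away, the start nearest to CDH18 was that of CDH12 at 2277 kb, and the start nearest to CDH8 was that of CDH11 at 3089 kb. CDH7 and CDH19 were each other's nearest at 854 kb. CDH11 was nearest to CDH5, the endothelial type II cadherin, at 1241 kb. For CDH10 and CDH12 the nearest start was PRDM9, a meiotic histone methyltransferase, at 1201 and 590 kb. The remaining pairs were closer, with DROSHA, the microRNA-processing nuclease, 339 kb from CDH6 and RNF152, a ubiquitin ligase, 561 kb from CDH20. The 2 members with H3K27me3 on the body were thus the 2 with the closest neighbours, since the 8 H3K9me3 members ranged from 590 to 3089 kb. With 2 genes on one side this is a description.

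All 10 members were at least 100 kb long. CDH12 spanned 1103 kb and CDH18 spanned 1105 kb, each longer than 99.7% of protein-coding genes. CDH8 spanned 390 kb, CDH9 spanned 241 kb, CDH20 spanned 222 kb and CDH11 spanned 182 kb. CDH10 (158 kb), CDH7 (140 kb), CDH6 (135 kb) and CDH19 (103 kb) were shorter, against a median of 27.5 kb over all protein-coding genes. Gene length did not separate the marks, as CDH6 and CDH20 lay within the lengths of the H3K9me3 members.

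**Figure D1:**
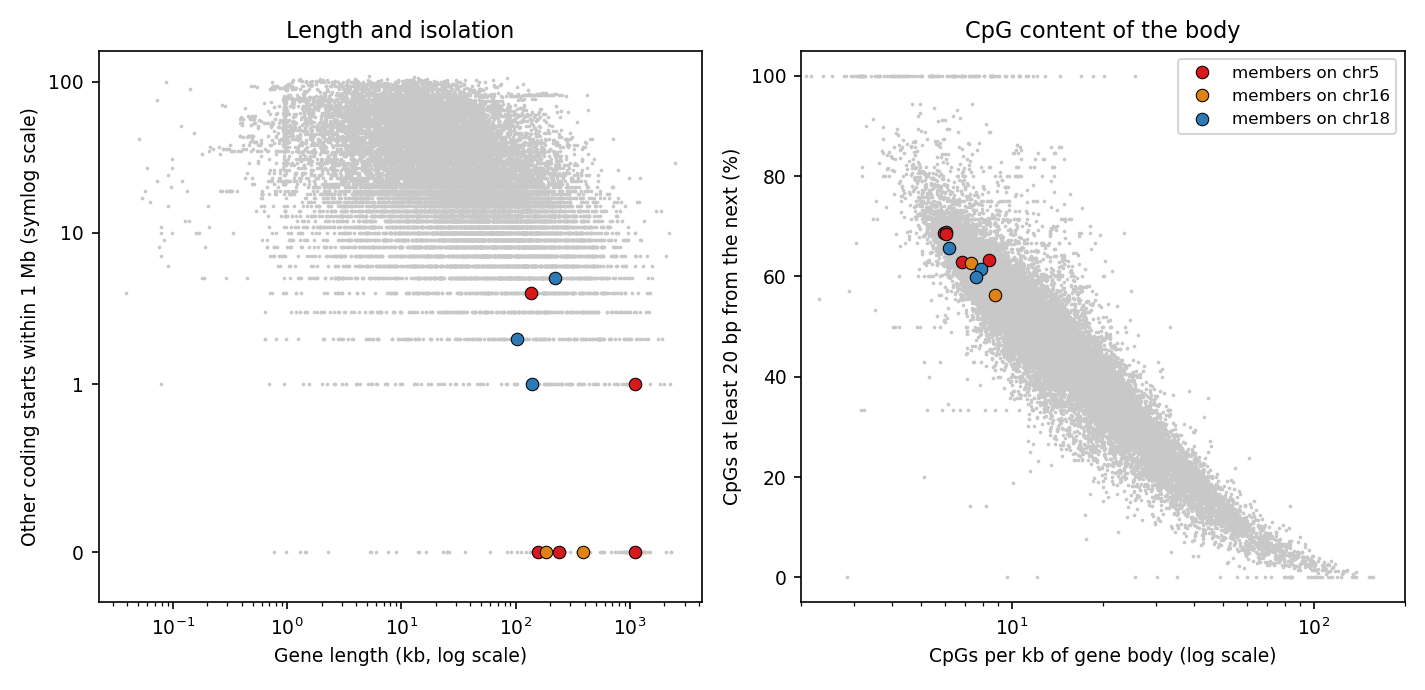
Left, gene length (kb, log scale) against the number of other coding start sites within 1 Mb (symlog scale). Right, CpGs per kb of gene body (log scale) against the share of CpGs at least 20 bp from the next CpG (%). Each grey point is a protein-coding gene and coloured points are the 10 members by chromosome. The members sit at long lengths, with at most 5 other starts within 1 Mb, and at 5.93 to 8.77 CpGs per kb.

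The bodies were poor in CpGs, and the CpGs they held were mostly far apart. The members had 5.93 to 8.77 CpGs per kb of body, with a median of 7.07 against 14.3 over all protein-coding genes. A CpG with no other CpG closer than 20 bp was counted as low-density. Low-density CpGs made up 56.3% to 68.9% of the CpGs of a member, with a median of 63.0% against 45.4% over all protein-coding genes. The median GC content was 35.3% against 45.3%.

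The chromosome groups differed in CpG content by less than they differed from the average gene. The median was 6.05 CpGs per kb for the 5 members on chromosome 5, 8.04 for the 2 on chromosome 16 and 7.57 for the 3 on chromosome 18. The corresponding shares of low-density CpGs were 68.4%, 59.5% and 61.5%. CDH18 (5.93 per kb), CDH9 (6.03), CDH12 (6.05) and CDH19 (6.16) were the lowest, and CDH11 (8.77) and CDH6 (8.37) the highest. CDH6 and CDH20 (7.87) lay within the range of the H3K9me3 members only because of CDH11. Every other H3K9me3 member was below both, the highest of them being CDH7 at 7.57. With 2 genes on one side, a difference in CpG content of the body between the marks was not tested.

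Start sites of the members were compared with the H3K9me3 domains first. In the Clone 3 set, 8 of 10 members had their start site in a domain, against 3.35% of all protein-coding genes. At least 50% of the body was covered in the same 8 members, against 3.42%. In the shared H3K9me3 set, the same 8 of 10 had their start site inside (all genes, 3.24%) and at least 50% of the body covered (all genes, 3.29%). For each of the 8 the body was covered to 100%, a level reached by 2.83% of all protein-coding genes in Clone 3. These 8 genes lay in only 3 domains, so they are not independent of each other.

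Long and isolated genes lay in H3K9me3 domains more often than the average gene, and the members belong to these classes. Of the protein-coding genes of at least 100 kb, 5.32% had their start in a Clone 3 H3K9me3 domain. Of those with at most 5 other coding starts within 1 Mb, as all 10 members have, the share was 13.9%. Of the 85 with no other coding start within 1 Mb it was 52.9%, or 45 genes, and all 5 members of that class were among them. These classes were set after the values of the members had been seen and are given as background. Isolation moved with the H3K9me3 call, and its part in the result was not tested.

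**Figure D2:**
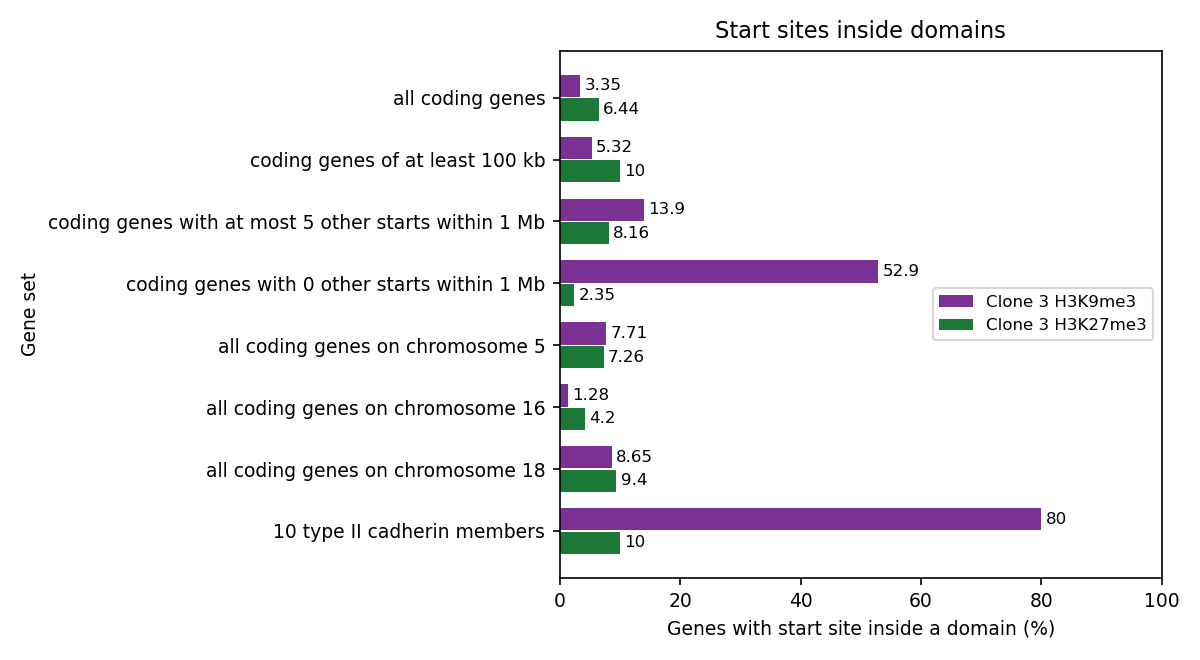
Share of genes with the start site inside a Clone 3 domain (%), for all protein-coding genes, for long or isolated genes, for all coding genes of the 3 chromosomes, and for the 10 members. Purple bars are H3K9me3 and green bars are H3K27me3. The H3K9me3 share is 3.35% over all genes, 52.9% among the most isolated genes and 80.0% among the members.

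On chromosome 5, CDH18 (chr5:19471296-20575873), CDH12 (chr5:21750673-22853344), CDH10 (chr5:24487100-24644978) and CDH9 (chr5:26880597-27121150) lay in this order in a single H3K9me3 domain, chr5:17600001-29036000. This domain of 11436 kb was the longest of the 567 in Clone 3 and of the 478 in the shared set, with the same coordinates in both. When the Clone 3 domains were ranked by the lower of the 2 scores that the authors give each, it was at rank 2. All 4 genes are transcribed from the minus strand. The start sites were deep inside, at 2976 kb from the nearer edge for CDH18, 5253 kb for CDH12, 4391 kb for CDH10 and 1915 kb for CDH9. Only 6 other coding genes started in the whole domain: the PRDM9 gene, the histone variant H3Y1, and TAF11L11, TAF11L12, TAF11L13 and TAF11L14, which resemble the transcription factor subunit TAF11.

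The 4 genes were covered at every annotated coding start. CDH18 has 7 distinct starts of protein-coding transcripts, CDH12 and CDH9 have 3 each and CDH10 has 1, and all were inside the domain. The canonical start of CDH18 lies 588 kb and that of CDH9 lies 82.6 kb from the start of the gene record, and both were inside as well. All exons of the canonical transcripts were covered: 13 of CDH18, 15 of CDH12, 12 of CDH10 and 12 of CDH9. The sequence within 1 Mb on either side of each of these bodies was H3K9me3 to 100%.

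CDH6 (chr5:31193686-31329146, plus strand), the fifth member on chromosome 5, lay just past the heterochromatin. A second H3K9me3 domain, chr5:29256001-31184000, followed the first after a gap of 220 kb and ended 9.69 kb upstream of the CDH6 start site. No base of the CDH6 body was in H3K9me3 in either set. H3K27me3 began within the gene, 46.3 kb downstream of the start in Clone 3 and 60.3 kb downstream in Clone 6 and the shared set. The Clone 3 domain was chr5:31240001-31395000 (155 kb) and the Clone 6 domain was chr5:31254001-31394000 (140 kb).

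These domains covered 65.8% of the CDH6 body in Clone 3 (89.1 kb), and 55.5% in Clone 6 and in the shared set (75.1 kb). The start site itself and both annotated coding starts were in neither mark. Exon 1 of the canonical transcript was outside, and exons 2 to 12, 11 of 12, were inside in all 3 H3K27me3 sets. The interval without either mark, which holds the CDH6 start, was 56 kb wide in Clone 3 and 70 kb wide when the Clone 6 H3K27me3 domain was used. No other coding gene started in the CDH6 domain in either clone.

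On chromosome 16, CDH8 (chr16:61647242-62037035) and CDH11 (chr16:64943753-65126112), both on the minus strand, lay in a single H3K9me3 domain, chr16:59102001-65690000, and were the only coding genes that started in it. The domain was 6588 kb long, rank 4 of 567 by length in Clone 3, rank 4 of 478 in the shared set, and rank 3 by score. The CDH8 start was 2935 kb from the nearer edge. The CDH11 start was 564 kb from the edge, the closest to an edge among the 8. All 6 coding starts of CDH8 and all 10 of CDH11 were inside, as were the 12 and 13 exons of their canonical transcripts.

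The H3K9me3 domain of chromosome 16 had H3K27me3 beyond both ends. On the side of CDH8 the gap was 177 kb in Clone 3 and 222 kb in Clone 6. A further H3K9me3 domain lay within this gap, 4 kb past the edge. On the side of CDH11, the Clone 3 H3K27me3 domain chr16:65715001-66257000 began 25 kb past the H3K9me3 edge and 589 kb upstream of the CDH11 start. In Clone 6 the domain chr16:65916001-66356000 began 226 kb past the edge and 790 kb upstream of that start. Within 1 Mb of the CDH11 body, 78.2% of the sequence was H3K9me3, and 20.6% was H3K27me3 in Clone 3 against 10.5% in Clone 6. CDH8, further inside, was 3112 kb from the nearest H3K27me3 in Clone 3 and 3157 kb in Clone 6.

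On chromosome 18 the 3 members were divided. CDH7 (chr18:65750252-65890337, plus strand) and CDH19 (chr18:66501083-66604138, minus strand) lay in the H3K9me3 domain chr18:64168001-67424000, of 3256 kb, and were the only coding genes that started in it. It ranked 23 of 567 by length in Clone 3, 21 of 478 in the shared set and 24 by score. CDH7 started 1582 kb and CDH19 started 820 kb from the nearer edge. All 3 coding starts of each gene and all 12 exons of each canonical transcript were inside. The sequence within 1 Mb of the body was H3K9me3 to 100% for CDH7 and to 93.6% for CDH19. Another H3K9me3 domain followed after a gap of 128 kb on the side of CDH19.

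CDH20 (chr18:61333430-61555779, plus strand), the third member on chromosome 18, started 2835 kb before that H3K9me3 domain and had no H3K9me3 within 1 Mb. It was the only member whose start site was in an H3K27me3 domain, in all 3 H3K27me3 sets, with all 3 of its coding starts inside. In Clone 3 its body was covered to 94.7% (211 kb) by chr18:61092001-61513000 and chr18:61516001-61547000. In Clone 6 it was covered to 65.9% (147 kb) by chr18:61088001-61404000 and chr18:61438001-61514000, and in the shared set to 65.5%.

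The clones differed over CDH20 in the middle and at the end of the gene. Of its 12 exons, exons 1 to 6 were in the first Clone 3 domain and exons 7 to 10 in the second, so that 10 were covered. In Clone 6 exon 1 was in the first domain and exons 2 to 6 in the second, so that 6 were covered. Within 1 Mb on either side of the body, 42.6% of the sequence was H3K27me3 in Clone 3 and 12.3% in Clone 6. When only domains of at least 100 kb were kept, the CDH20 body was covered to 80.8% in Clone 3 and 31.7% in Clone 6, so that Clone 6 no longer reached 50%. With domains under 50 kb apart joined, the coverage was 100% in Clone 3 and 81.2% in Clone 6. With the upper 50% of domains by score it was 80.8% and 65.9%. CDH20 was the only gene with a start in the domain that held its own start site, in both clones.

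**Figure D3:**
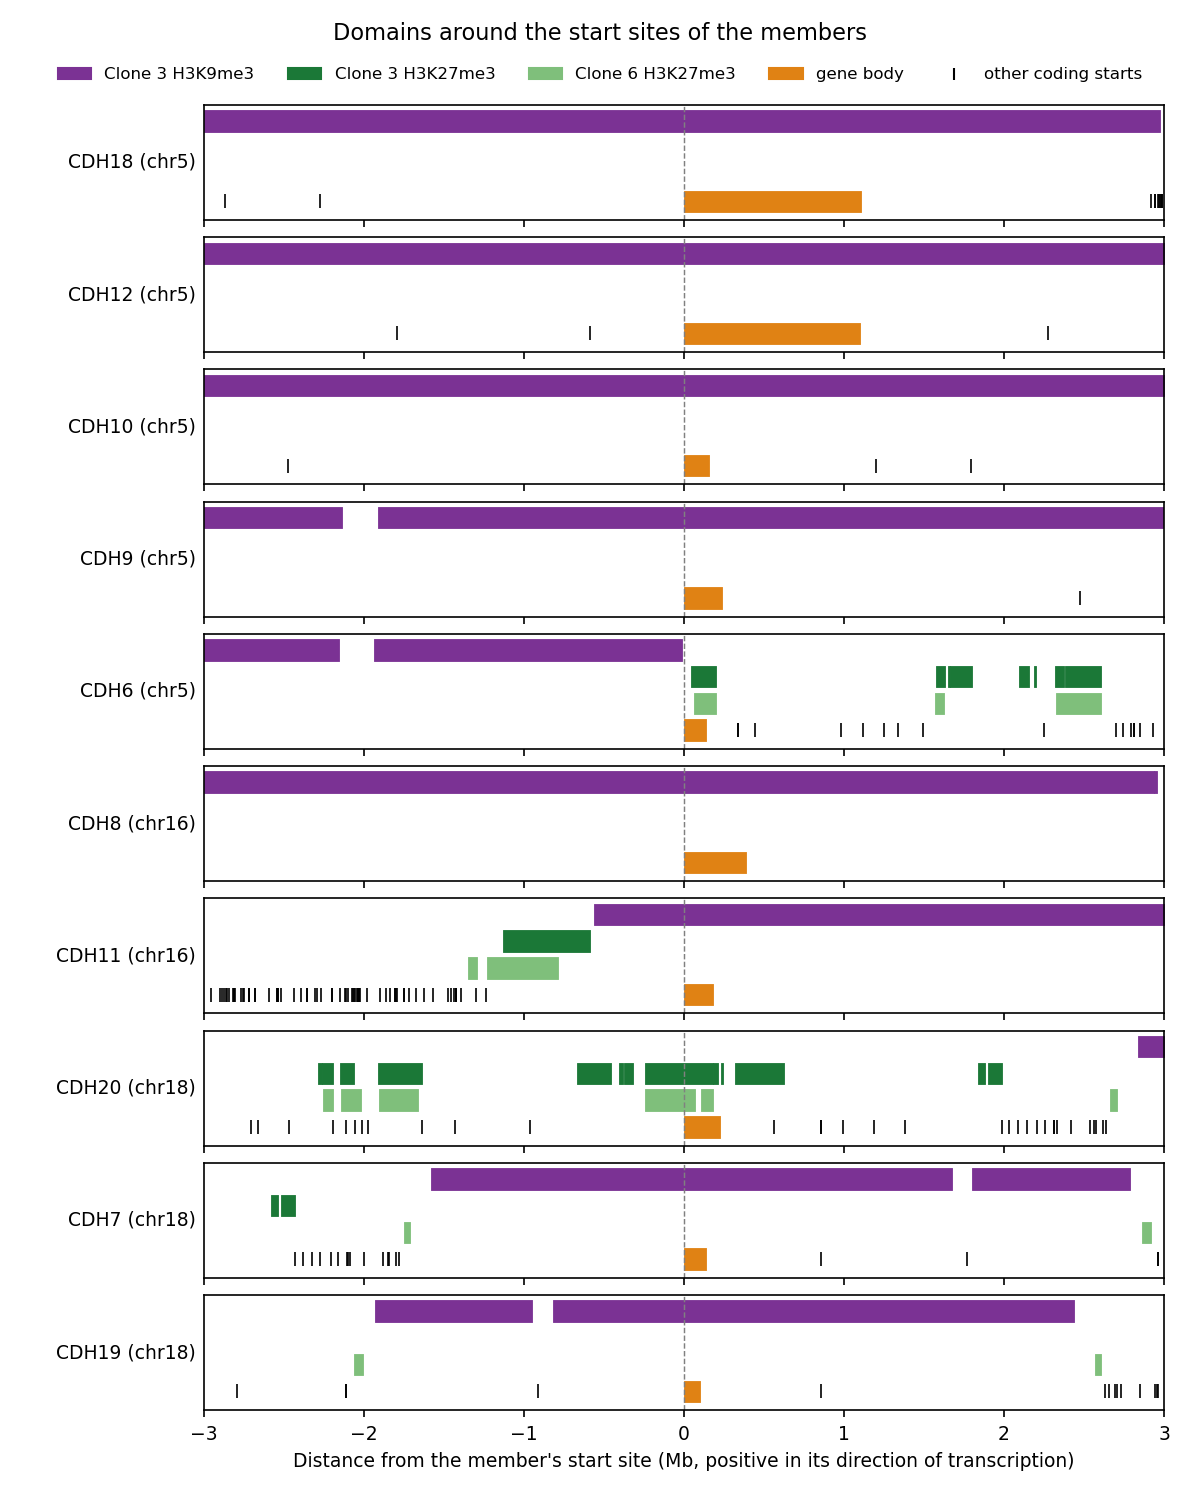
Domains around each member, in Mb from its start site (dashed line) in the direction of transcription, to 3 Mb on either side. Purple is Clone 3 H3K9me3, dark green is Clone 3 H3K27me3, light green is Clone 6 H3K27me3, orange is the gene body and black ticks are other coding start sites. Purple crosses the start of 8 genes, ends 9.69 kb before CDH6, and is absent near CDH20, where green covers the start.

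**Figure D4:**
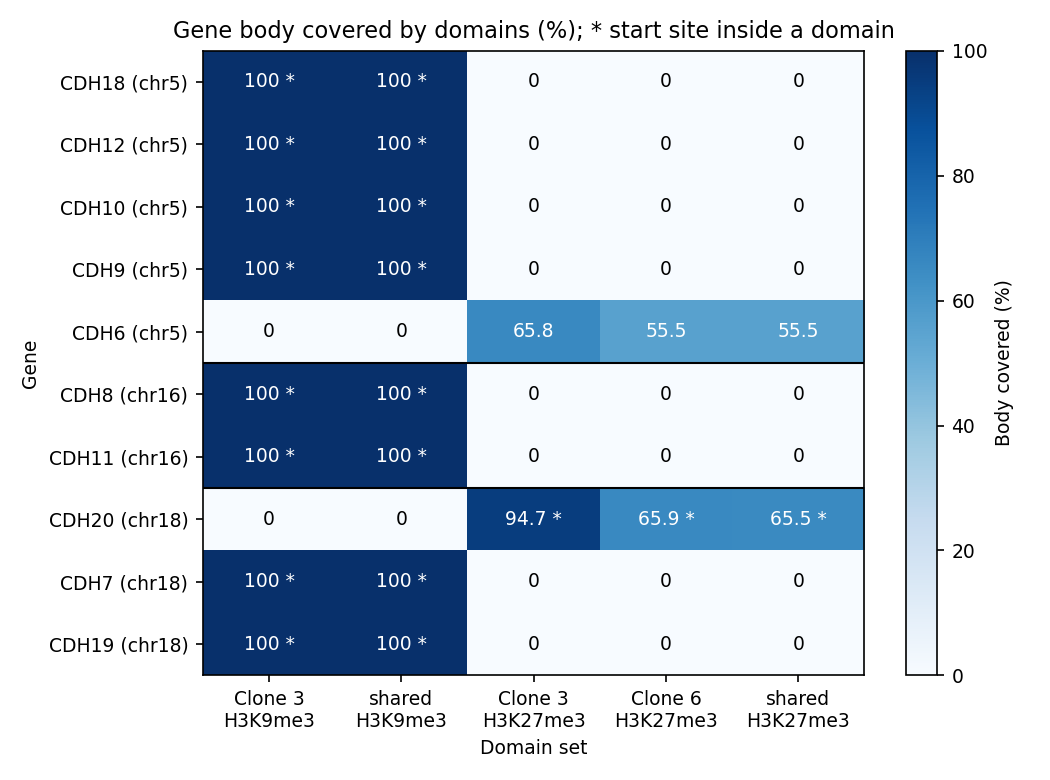
Share of each gene body covered by each of the 5 domain sets (%), with members in rows ordered by chromosome and position, and an asterisk where the start site is inside a domain. 8 members read 100% in both H3K9me3 sets and 0% in the H3K27me3 sets. CDH6 and CDH20 read 0% in H3K9me3, and 55.5% to 94.7% in H3K27me3.

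H3K27me3 was next compared over all members. In Clone 3, 1 of 10 members had the start site in a domain, against 6.44% of all protein-coding genes, and 2 of 10 had at least 50% of the body covered, against 6.76%. In Clone 6 the counts were 1 and 2 of 10, against 7.97% and 7.77% of all genes. In the shared set they were 1 and 2 of 10, against 5.32% and 5.48%. The share of start sites among the members, 10.0%, was thus near the background. The start-site background in Clone 3 was 10.0% for genes of at least 100 kb. It was 8.16% for genes with at most 5 other starts within 1 Mb and 2.35%, or 2 of 85 genes, for genes with none. At least 50% of the body was covered in 402 of the 3667 genes of at least 100 kb. The body count of 2 of 10 members, all of such length, is thus also read as near the background.

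The H3K9me3 members other than CDH11 were far from H3K27me3, and the domains of all 8 held none of it. In all 3 H3K27me3 sets, 0 kb of H3K27me3 lay inside the H3K9me3 domains of chromosomes 5, 16 and 18 that hold members. The share of all H3K9me3 domains without H3K27me3 was not computed. In Clone 3 only 83 of the 20033 protein-coding genes had both marks on the body. A start inside such a domain is at least as far from H3K27me3 as from the nearer domain edge. The distances below thus partly restate the H3K9me3 call and are no separate finding. In Clone 3 the distance from the start site to the nearest H3K27me3 was 6595 kb for CDH10, 5338 kb for CDH12, 4119 kb for CDH9 and 3061 kb for CDH18. It was 3285 kb for CDH19, 3112 kb for CDH8, 2431 kb for CDH7 and 589 kb for CDH11. The median over all protein-coding genes was 706 kb in Clone 3, and CDH11 was the only one of the 8 below it. In Clone 6 the median was 500.2 kb, and CDH11, at 790 kb, was above it like the other 7. In the shared set the median was 863.7 kb, and CDH11, again at 790 kb, was below it.

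Clone 6 gave longer distances than Clone 3 for CDH9, CDH10, CDH12, CDH18 and CDH11, with all domains and under each alternative choice of domains. For CDH8 on chromosome 16 and for CDH7 and CDH19 on chromosome 18 the direction depended on which domains were kept. On chromosome 5 the distances were 14 to 23 kb longer, at 6609 kb for CDH10, 5361 kb for CDH12, 4133 kb for CDH9 and 3084 kb for CDH18. The distance was 201 kb longer for CDH11. For CDH8 it was 45 kb longer with all domains, but the nearest Clone 3 domain is only 40 kb long, and with domains of at least 100 kb CDH8 was 3157 kb away in Clone 6 and 3678 kb in Clone 3. With all domains, on chromosome 18, Clone 6 had H3K27me3 domains closer to the H3K9me3 domain, at chr18:63998001-64038000 (40 kb) and chr18:68610001-68668000 (58 kb). The distance was then 1712 kb for CDH7 and 2006 kb for CDH19, shorter than the 2431 and 3285 kb of Clone 3. Neither domain was in the shared set, where the distances were 4237 and 5091 kb. Both are under 100 kb. With domains of at least 100 kb alone the direction turned, as CDH7 was 4346 kb away in Clone 6 and 3792 kb in Clone 3, and CDH19 was 5200 kb and 3924 kb away. It turned likewise with the upper 50% of domains by score, at 4236 and 3792 kb for CDH7 and 5090 and 3924 kb for CDH19.

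**Figure D5:**
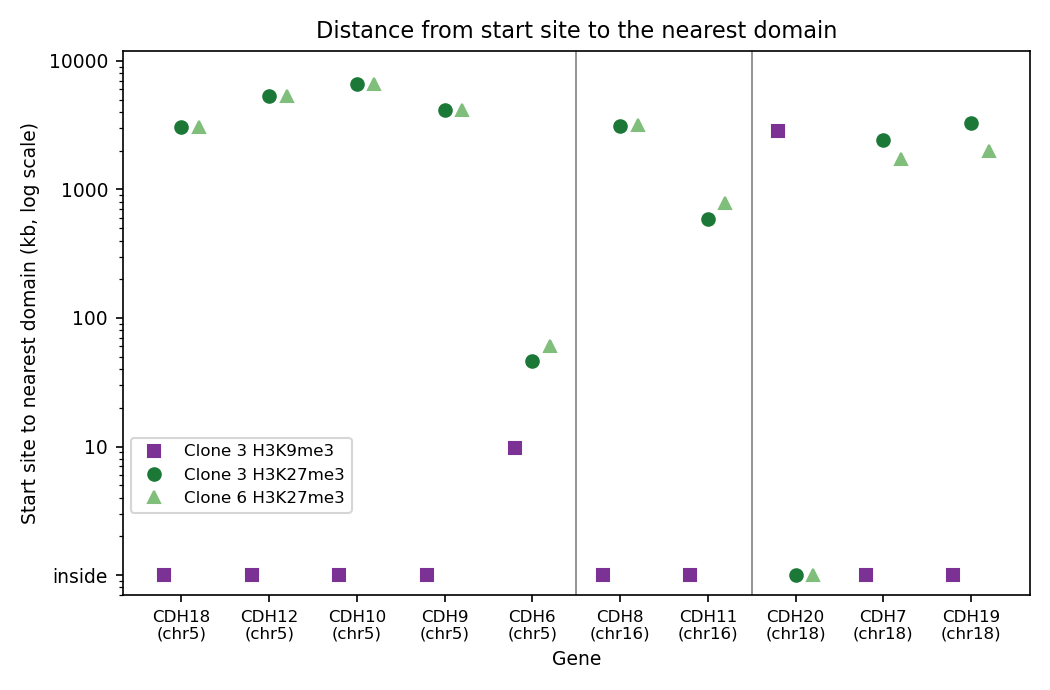
Distance from each member's start site to the nearest Clone 3 H3K9me3, Clone 3 H3K27me3 or Clone 6 H3K27me3 domain (kb, log scale, with start sites inside a domain drawn at the bottom). Grey lines part the members on chromosomes 5, 16 and 18. The 8 H3K9me3 members lie 589 to 6609 kb from H3K27me3, and CDH6 lies 9.69 kb from H3K9me3 and 46.3 or 60.3 kb from H3K27me3.

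The 3 chromosome groups can be read side by side. 4 of 5 members on chromosome 5, 2 of 2 on chromosome 16 and 2 of 3 on chromosome 18 had their start in Clone 3 H3K9me3. The shares over all coding genes of those chromosomes were 7.71% (68 of 882), 1.28% (11 of 857) and 8.65% (23 of 266). The members were therefore 4 of the 68 such genes on chromosome 5, 2 of the 11 on chromosome 16, and 2 of the 23 on chromosome 18. On chromosomes 5 and 18 the member without H3K9me3 stood at one end of the row of members, CDH6 as the last and CDH20 as the first by position, and each had H3K27me3 instead. On chromosome 16 neither member had H3K27me3. By any overlap with the body in Clone 3, H3K27me3 was on 1 of 5, 0 of 2 and 1 of 3 members. Over all coding genes of chromosomes 5, 16 and 18 it was on 91 of 882, 52 of 857 and 39 of 266. The absence from both members on chromosome 16 is thus near the background, and the difference between chromosomes was not tested.

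By the 50% rule in Clone 3, 8 members were in H3K9me3, 2 in H3K27me3 and 10 in either, against 2039 (10.2%) of all protein-coding genes in either. In the classes to which the members belong, the share in either mark was 22.0% for genes with at most 5 other coding starts within 1 Mb and 55.3% for genes with none. By start site, CDH6 was in neither mark. Some overlap of the body with both marks was found for 0 of 10 members and for 83 (0.414%) of all protein-coding genes, so the absence of such overlap is near the background.

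Other cadherins and the catenins, which link cadherins to the actin cytoskeleton, were read in the same way. Among the 5 type I cadherins CDH1, CDH2, CDH3, CDH4 and CDH15, the start of CDH4, the retinal cadherin, was in H3K9me3, with 30.8% of its body in that mark and 60.0% in Clone 3 H3K27me3. The other 4 had no body overlap with any set. Among these, CDH2 is 245 kb long and has 1 other coding start within 1 Mb. Among the 3 type II cadherins outside the group, CDH5, CDH22 and CDH24, only CDH22 had its start in a domain, in Clone 6 H3K27me3 alone, with 71.8% of its body covered there and 0% in Clone 3. None of these 3 had H3K9me3 on the body. They had 38 to 45 other coding starts within 1 Mb, against at most 5 for the members, so isolation and list differ together and cannot be told apart here.

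Of CDH13, CDH16, CDH17, CDH23 and CDH26, 2 had a start in a domain. CDH13, a cadherin anchored by a lipid tail, started in H3K27me3 in all 3 sets, with 47.9% of its body in that mark and 49.4% in H3K9me3 in Clone 3. CDH26 started in H3K27me3 in Clone 6 alone, with 94.7% of the body covered there and 58.2% in Clone 3. None of the 7 desmosomal cadherins, which lie together on chromosome 18, had a start in a domain of any set. By set, the share of start sites was 3.24% to 7.97% over all protein-coding genes. It was 8.27% to 12.8% over the coding genes of chromosome 18, so none of 7 neighbouring genes is near the background. Among the 7 catenins, CTNNA2, the neural alpha-catenin, started in H3K9me3 with 88.2% of its body covered in Clone 3 and 77.5% in the shared set. CTNND2, the neural delta-catenin, started in H3K9me3 with 65.2% covered, and 27.6% of its body was in Clone 3 H3K27me3. The other catenins had no start in a domain and no body overlap with any set. Among these, CTNNA3 is 1851 kb long and holds 5.87 CpGs per kb, with 14 other coding starts within 1 Mb.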

How the data were processed

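The authors trimmed the reads with Trim Galore (0.5.0), aligned them to hg38 with Bowtie2 (2.3.5), removed duplicates with samblaster and used Enriched Domain Detector with its defaults to call broad domains. The deposited sets hold domain coordinates in whole kb, kept where replicates, or both clones, had them in common. The deposited score columns, 2 per domain in the clone sets, have no stated scale and served only to rank domains. No count or depth can be read from domain sets, so their precision is unknown.

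Genes were the 20033 protein-coding genes of GENCODE release 44 on the assembled chromosomes. The start site was the 5′ end of the gene record, and the body was the record from start to end. Overlap and distance were computed in Python 3.11.15 with numpy 2.4.6 and pandas 2.3.3, and tested on simulated intervals. Distances run to the nearest domain edge. Promoter windows came from RefSeq. Those of the members were matched by symbol and canonical start. The comparison windows were matched by symbol alone, so they include other starts and several windows for some genes.

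The members and gene lists were chosen with earlier results of these data known. All members are named, with list genes that start in a domain, coding genes that start in a member's domain, and the nearest coding start to each member. Alternatives were domains of at least 100 kb, the upper 50% of domains by score, domains under 50 kb apart joined, other start sites and spans, and coverage of at least 1 bp or 90%. Value columns left unmapped numbered 0. Protein identity between members was planned and not computed.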

Additional observations from a re-analysis of the deposited data

How the results depend on the processing

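All alternatives left the H3K9me3 counts at 8 of 10 members, except that 9 started in or within 50 kb of a domain, as CDH6 was then added. These alternatives could not lower the counts. The 8 bodies lie wholly in domains of 3256 to 11436 kb, which rank 24 or higher of 567 by score in Clone 3. Over all counts of members, 45 of 51 alternatives stayed within 1.5 times the main count, and 6 H3K27me3 counts did not. In Clone 3, 2 members instead of 1, CDH6 again added, started in or within 50 kb of H3K27me3. With at least 90% of the body covered, the Clone 3 count fell from 2 to 1, and the Clone 6 and shared counts fell from 2 to 0. With domains of at least 100 kb, the Clone 6 and shared counts fell from 2 to 1, as CDH20 dropped below 50%. For single genes, a distance was taken as moved past 1.5 times, and a body share past the exact 95% binomial interval with each kb as a unit, which is a yardstick and not an error. Of 310 such alternatives, 13 moved, all in CDH20 coverage or in the distance from CDH7 or CDH19 to H3K27me3. The distance from CDH7 to Clone 3 H3K27me3 became 3792 kb with domains of at least 100 kb.

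No paired analysis was possible because each set gives 1 list for both replicates, and leaving out single replicates was not possible for the same reason. The domain sets carry no depth, so weaker signal outside the called domains was not measured here. H3K9me3 of Clone 6 was seen only where both clones share it. The domain edges are whole kb.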
